A study of Mus musculus with 10 samples.

Results

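Nitric oxide and cyclic nucleotide signalling was described in single amacrine cells of the mouse retina through 41 of the 27933 genes in the deposited count table. The genes were chosen by name: Nos1, and every adenylyl cyclase (Adcy), guanylate cyclase (Gucy), cGMP-dependent protein kinase (Prkg1 and Prkg2) and cyclic nucleotide phosphodiesterase (Pde), leaving out the photoreceptor Pde6 genes. They comprised 1 nitric oxide synthase, 9 guanylate cyclases, 2 cGMP-dependent kinases, 10 adenylyl cyclases and 18 phosphodiesterases. Pde4dip also matched the name pattern, but it encodes myomegalin, a scaffold protein and not a phosphodiesterase. All 10 libraries came from Chx10-cre-GFP mice at postnatal day 19, with no treatment and no other genotype. In this strain the Chx10 promoter drives the GFP-Cre fusion, and Chx10 marks bipolar cells in the mature retina. Viable cells (Calcein Blue-positive) that were negative for GFP, CD133 and CD73 were sorted and loaded on the 10x Chromium 3′ v2 platform, in 3 labelled batches of 1, 5 and 4 libraries.

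Nitric oxide made by Nos1, the neuronal synthase, activates soluble guanylate cyclase, a heterodimer of an alpha subunit (Gucy1a3 or Gucy1a2) and the beta subunit Gucy1b3, which makes cGMP. Adenylyl cyclases make cAMP under the control of G proteins and, in some isoforms, calcium. Both messengers act on kinases and gated channels and are broken down by phosphodiesterases, of which some prefer cAMP, some cGMP and some hydrolyse both. In the retina, nitric oxide is released by a sparse set of amacrine cells and is known to alter the coupling of electrical synapses.

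The table held 32523 cells and 171257947 unique molecular identifiers (UMIs, each standing for a captured transcript molecule). Libraries held 950 to 4738 cells, 6302659 to 26028492 UMIs and a median of 3296.5 to 5717 UMIs per cell. Of 31586 distinct barcodes, 923 (2.92%) occurred in at least 2 libraries. No cell annotation was used. Cells were grouped by UMI gates: Gad (Gad1 plus Gad2 at least 2, Slc6a9 at 0; GABA-making cells, 16415), Slc6a9 (the reverse; glycine transporter, 4556), Gjd2 (at least 3; connexin 36, 1940), cholinergic (Chat plus Slc18a3 at least 2; 651), Slc17a8 (at least 2; vesicular glutamate transporter, 666), Vip (at least 5; 930), Npy (at least 10; 1548) and Nos1 (at least 3; 137). A gate is a transcript threshold and not a cell type, and gates overlap. Of the Npy gate, 277 cells (17.89%) also passed the cholinergic gate, and 934 cells (48.14%) of the Gjd2 gate passed the Slc6a9 gate. Levels are in CPM: the UMIs of a gene summed over the gated cells of a library, per 1000000 UMIs of those cells. A CPM cannot tell fewer expressing cells from fewer molecules per cell. The cholinergic gate held starburst markers outside its own rule, with Slc5a7 at 277.5 CPM against 10.34 in all cells, Sox2 at 263.9 against 9.448 and Megf11 at 237.5 against 12.52. Of the 6 AII-cell markers, the Gjd2 gate held Gjd2 itself, Prox1 (283.4 CPM against 69.26), Nfia (227.8 against 74.41) and Dab1 (143 against 60.86) above their level in all cells, but Calb2 (657.6 against 816.2) and Ebf3 (4.961 against 14.99) below it. The whole list summed to 2081.0 CPM there and to 6756.3 in the cholinergic gate, so the gate is named by its rule only. The Slc6a9 gate took 8.128 to 11.34% of cells per library in batch 2 and 21.16 to 23.17% in batch 3. The labels do not say which animals made each library, so each p-value speaks only of how libraries vary among themselves, and that variation may be technical.

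The promoters shown are those of 4 members that the results turn on: Gucy1b3, the beta subunit of soluble guanylate cyclase, and Pde8b, Adcy5 and Pde11a, whose levels stood highest in the Gjd2 or the cholinergic gate. Each run is the 250 bases before a RefSeq transcript start (GRCm38.p6), written 5′ to 3′ on the gene's strand. Capitals mark the cAMP response element half-site TGACG and the GC box GGGCGG, each searched on both strands (CGTCA and CCGCCC are the reverse forms). Gucy1b3 is at chr3:82074712-82074961 (minus strand), Pde8b at chr13:95250337-95250586 (minus), Adcy5 at chr16:35154614-35154863 (plus) and Pde11a at chr2:76338939-76339188 (minus).
Gucy1b3: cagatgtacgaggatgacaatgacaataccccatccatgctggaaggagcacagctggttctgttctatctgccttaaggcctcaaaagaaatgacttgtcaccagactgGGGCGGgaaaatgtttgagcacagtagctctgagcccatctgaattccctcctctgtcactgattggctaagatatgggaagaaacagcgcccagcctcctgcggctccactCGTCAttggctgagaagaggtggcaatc
Pde8b: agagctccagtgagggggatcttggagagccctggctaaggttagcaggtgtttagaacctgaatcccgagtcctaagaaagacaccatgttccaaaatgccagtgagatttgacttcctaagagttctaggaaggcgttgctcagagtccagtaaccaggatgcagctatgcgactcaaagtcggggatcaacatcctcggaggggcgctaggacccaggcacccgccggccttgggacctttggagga
Adcy5: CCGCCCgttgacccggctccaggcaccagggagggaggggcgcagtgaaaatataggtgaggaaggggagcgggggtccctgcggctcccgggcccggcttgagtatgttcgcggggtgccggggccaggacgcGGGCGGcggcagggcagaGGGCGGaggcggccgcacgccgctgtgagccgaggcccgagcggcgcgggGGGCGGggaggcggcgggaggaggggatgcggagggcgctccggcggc
Pde11a: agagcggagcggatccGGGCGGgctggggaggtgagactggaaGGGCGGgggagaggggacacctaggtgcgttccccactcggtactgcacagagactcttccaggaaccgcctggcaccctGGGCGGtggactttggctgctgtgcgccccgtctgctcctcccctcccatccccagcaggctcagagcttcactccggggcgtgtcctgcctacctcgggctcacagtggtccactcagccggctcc
The Gucy1b3 window held 1 half-site, 28 bases before the start, and 1 GC box. The Adcy5 window held 4 GC boxes and the Pde11a window 3. The Pde8b window shown held neither motif, whereas a window before another Pde8b start, chr13:95223093-95223342, held 4 GC boxes. Across 61 windows of the 33 members with a RefSeq window, 10 windows (16.4%) held the half-site, against 17.9% of all 32536 windows of this length. The GC box stood in 24 member windows (39.3%) against 33% of all. The full element TGACGTCA was in 0 member windows and in 1.56% of all windows. A match describes letters only, and these counts say nothing about binding.

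Over all cells, the alpha subunit Gucy1a3 was the member with the most UMIs, 93878, and was detected in 67.84% of cells. Its partner Gucy1b3 followed with 32267 UMIs (52.87% of cells), then the dual-specificity phosphodiesterase Pde10a with 31430 (44.81%), the cAMP-specific Pde4b with 24006 (38.49%) and Pde3a, which cGMP inhibits, with 19293 (25.49%). Among adenylyl cyclases Adcy2 had the most UMIs, 7774 in 17.4% of cells. Prkg1 had 2795 UMIs in 7.549% of cells and Nos1 had 1697 in 2.174%. At the other end, Adcy4 and Gucy1b2 had 1 UMI each, and the membrane cyclases Gucy2d and Gucy2f had 6 and 8. A UMI counts a captured 3′ end whatever the transcript's length, and capture may still differ between genes, so this order is of captured molecules.

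In all, 7 comparisons were tested with edgeR's quasi-likelihood test on UMI sums with the library as a block, and a call is a Benjamini-Hochberg adjusted p under 0.05 over all genes tested. Between the Slc6a9 and Gad gates, 22 of 27 members tested were called (10 higher and 12 lower in the Slc6a9 gate), against a background of 61.2% of all genes. The share of genes called in the other 6, each a gate against all other cells, was 48.4% for Gjd2 (members 22 of 29), 34.7% for cholinergic (16 of 28), 25.1% for Slc17a8 (12 of 27), 25.6% for Vip (15 of 28), 28.7% for Npy (14 of 30) and 24.5% for Nos1 (13 of 32). The members' shares were above these backgrounds in all 7 comparisons, which is given as a description and was not tested. By direction, the members called higher and lower numbered 7 and 15 in the Gjd2 gate (all genes 23.9% and 24.5%), 9 and 7 in the cholinergic gate (16.8% and 18%), 4 and 8 in the Slc17a8 gate (10.6% and 14.5%), 4 and 11 in the Vip gate (12.5% and 13.1%), 8 and 6 in the Npy gate (15.4% and 13.3%) and 4 and 9 in the Nos1 gate (10.5% and 14%). Between the Slc6a9 and Gad gates all genes stood at 32.1% higher and 29.1% lower.

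Changes of at least 2-fold were fewer. Between the Slc6a9 and Gad gates they were called for 10 members (all genes 12.8%): 4 higher, Pde1a, Pde8b, Adcy5 and Pde7b (4.84%), and 6 lower, Pde2a, Nos1, Pde11a, Adcy2, Pde4b and Gucy1a3 (7.99%). The Gjd2 gate had 6 (5.8%), with Pde8b and Adcy5 higher (2.65%) and 4 lower (3.14%). The cholinergic gate had 9 (11.1%), with 5 higher, Pde11a, Pde5a, Pde4d, Pde9a and Adcy1 (4.04%), and 4 lower (7.06%). The Slc17a8 gate had 5 (5.81%), with Pde1c and Prkg1 higher (2.78%) and Nos1, Pde11a and Adcy8 lower (3.04%). The Vip gate had 6 (5.24%), with 0 higher (1.85%) and 6 lower (3.39%). The Npy gate had 2 (3.88%), with Pde11a and Pde5a higher (1.38%) and 0 lower (2.5%). The Nos1 gate had 7 (8.94%), with Pde2a and Pde11a higher (3.12%) and 5 lower (5.82%), 1 of which, Pde5a, rests on 0 UMIs. The members' median log2 difference lay between -0.30 (Nos1 gate; all genes -0.12) and 0.01 (cholinergic gate; all genes -0.01). The 6 comparisons against other cells share most of their cells and are not independent of each other. Of the phosphodiesterases tested, 12 of 14 were called between the Slc6a9 and Gad gates (85.71%, all members 81.48%, all genes 61.2%). With shares in the same order, the called were 13 of 15 for Gjd2 (86.67%, 75.86% and 48.4%) and 13 of 15 for cholinergic (86.67%, 57.14% and 34.7%). They were 7 of 14 for Slc17a8 (50%, 44.44% and 25.1%) and 10 of 14 for Vip (71.43%, 53.57% and 25.6%). For Npy they were 8 of 16 (50%, 46.67% and 28.7%) and for Nos1 7 of 16 (43.75%, 40.62% and 24.5%). All members include the phosphodiesterases. Whether these shares differ was not tested. Of the adenylyl cyclases, 6 of 7 tested were called between the Slc6a9 and Gad gates (85.71%, all genes 61.2%). Against other cells, 3 of 7 were called for Gjd2 (42.86% against 48.4%) and 1 of 7 for cholinergic (14.29% against 34.7%). The Slc17a8 gate had 2 of 7 (28.57% against 25.1%) and the Vip gate 3 of 7 (42.86% against 25.6%). Npy had 2 of 7 (28.57% against 28.7%) and Nos1 2 of 8 (25% against 24.5%).

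**Figure D1:**
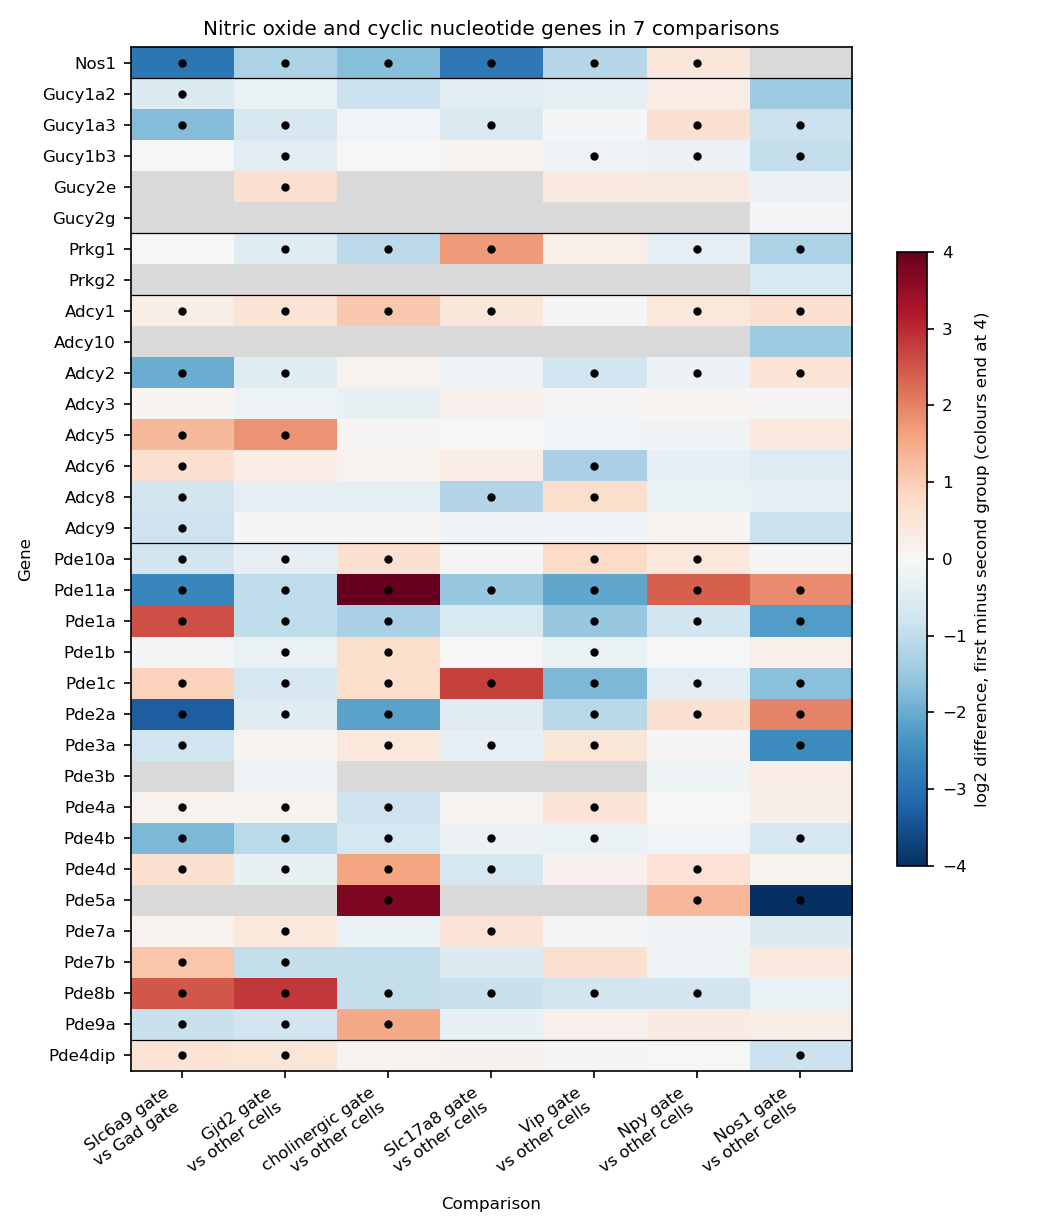
Log2 differences of the members tested in at least 1 comparison (rows) in the 7 comparisons (columns); colours end at 4 in either direction, black dots mark edgeR adjusted p under 0.05 and grey squares were not tested. Values above 2 include Pde11a and Pde5a in the cholinergic gate, Pde8b in the Gjd2 gate and Pde1c in the Slc17a8 gate; the Pde5a square of the Nos1 gate rests on 0 UMIs and gives no size.

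The heat map of log2 differences shows that most members called more than once moved in both directions across the gates. Pde8b was called in 6 of the 7 comparisons, higher in 2 and lower in 4, and Gucy1a3 was lower in 4 and higher in 1. Of the 28 members called at least once, 20 were called in both directions, 4 only higher and 4 only lower. In these counts the Slc6a9 gate stands first against the Gad gate. With that order reversed, Adcy1, Adcy5 and Pde4b would each be called in both directions, while Pde1a, Pde7b and Adcy6 no longer would. The calcium-stimulated cyclase Adcy1 was higher in 6 comparisons and lower in 0, with log2 differences from 0.28 (Slc6a9 against Gad) to 1.07 (cholinergic). Of these, only the Gjd2 call (0.54) held under every alternative run. The Adcy1 call was lost between the Slc6a9 and Gad gates with the other 6 gates left out (adjusted p = 0.0577), in the Npy gate without cholinergic-gated cells (0.20, 0.162), in the Nos1 gate over 8000 UMIs (0.244, 5 libraries) and among Gad-gated cells (0.0969, 3 libraries), and in the Slc17a8 gate with DESeq2 (0.0689). The cAMP-specific phosphodiesterase Pde4b was lower in 6 and higher in 0, from -0.24 (Slc17a8 gate) to -1.79 (Slc6a9 against Gad). Over 8000 UMIs the Pde4b value was 0.04 in the Slc17a8 gate and the call was lost in the Vip gate (-0.12, 0.532), while the other 4 calls held under every alternative run. The 5 members tested but never called were Adcy3, Adcy10, Gucy2g, Pde3b and Prkg2, and 8 had too few counts in every comparison: Adcy4, Adcy7, Gucy1b2, Gucy2c, Gucy2d, Gucy2f, Pde4c and Pde8a.

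Nos1 was carried by few cells. Of the 32523 cells, 707 (2.174%) had at least 1 Nos1 UMI, 234 had at least 2, 137 at least 3, 76 at least 5 and 28 at least 10, with a maximum of 42. The 137 cells with at least 3 UMIs held 60.7% of all 1697 Nos1 UMIs. In all cells, Nos1 stood at 6.744, 9.495 and 25.39 CPM in the lowest, median and highest library. The highest was the only library of batch 1, and the other 9 lay between 6.744 and 11.85 CPM.

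In the Gad gate Nos1 was 4.912, 10.01 and 30.48 CPM (lowest, median and highest of 10 libraries) and in the Slc6a9 gate 0, 1.328 and 3.32. The ranges did not overlap, and Nos1 was lower in the Slc6a9 gate by a log2 difference of -2.88 ± 0.29 (SE; edgeR adjusted p = 1.76e-08). Against other cells, Nos1 was also lower in the Slc17a8 gate (-2.86 ± 0.44, edgeR adjusted p = 4.86e-06), in the cholinergic gate (-1.71 ± 0.33, 0.000151), both without overlap between libraries, in the Gjd2 gate (-1.26 ± 0.26, 0.0005) and in the Vip gate (-1.15 ± 0.32, 0.00511), both with overlap. It was higher in the Npy gate, 5.349, 13.1 and 22.12 CPM, by 0.46 ± 0.14 (adjusted p = 0.0134), where libraries overlapped. That Npy call was lost in a fit without the library block (adjusted p = 0.373), and among cells of over 8000 UMIs the difference was -0.35. The Vip call was lost without the block (0.0895) and in batch 2 alone (0.141). The cholinergic call for Nos1 was lost in batch 3 (-2.13, 0.108), among cells of 3000 to 8000 UMIs (-1.49, 0.231) and with cells of other classes left out (-1.39, 0.238).

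The plot of Nos1-positive cells sets shares with all UMIs beside shares at equal depth, since the median cell of the Npy gate had 7767.5 UMIs, that of the Gad gate 5411 and that of the Slc6a9 gate 3664. Before thinning, the share was 8.493 ± 3.316% (SD, 10 libraries) in the Npy gate, 2.749 ± 0.660% in the Gad gate and 0.4535 ± 0.400% in the Slc6a9 gate. After each cell was thinned to 2000 UMIs, leaving out 2094 shallower Gad-gated and 843 Slc6a9-gated cells, the shares were 1.659 ± 1.131%, 0.9253 ± 0.387% and 0.2515 ± 0.280%. Thinned Gad-gated cells therefore still exceeded Slc6a9-gated cells, by 0.674 percentage points (SD 0.519), in 9 of 10 libraries (exact two-sided sign-flip permutation test, p = 0.00781). Thinned to 1000 UMIs, the difference was 0.366 points (SD 0.192), in 10 of 10 libraries (same test, p = 0.00195). Thinning was a single random draw per cell, so these shares carry the error of the draw. In library 9, the exception at 2000 UMIs, the Gad-gated share was 0.1418% at 2000 UMIs and 0.5355% at 1000. Within batch 2 the difference was 0.888 points in 5 of 5 libraries (exact permutation p = 0.0625, the smallest that 5 libraries can give), and within batch 3 it was 0.308 points in 3 of 4 (exact p = 0.375). The Slc6a9-gated share was 10 of 3713 thinned cells. Free RNA can place a UMI in a cell that does not express the gene, and its part in these shares was not tested. In the cholinergic gate, 15 of 651 cells (2.304%) held a Nos1 UMI before thinning, 2 of 651 when thinned to 1000 UMIs and 0 of 601 when thinned to 2000. Since the deeper draw held fewer such cells than the shallower, no limit is drawn from this 0. The Slc17a8 gate thinned to 2000 held 0 of 582 (up to 0.5155%). The limits given in this paragraph cover counting error only, and they bound cells with a UMI at the depth used, not cells that express the gene. With at least 3 Nos1 UMIs and no thinning, 0 of 4556 Slc6a9-gated cells passed (up to 0.06585%).

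**Figure D2:**
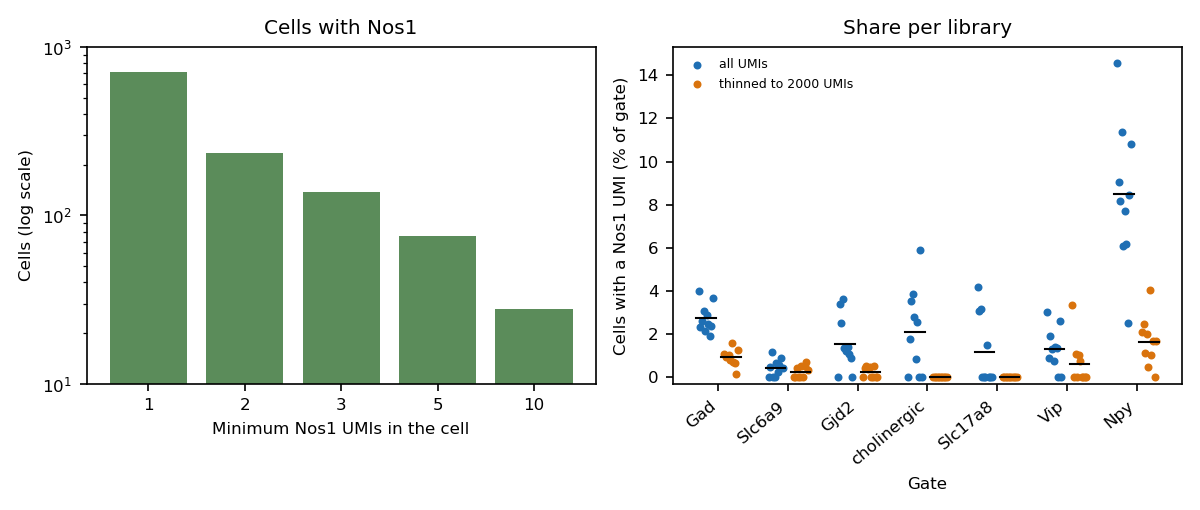
Left, cells (log axis) with at least 1, 2, 3, 5 and 10 Nos1 UMIs. Right, share of cells with a Nos1 UMI in each gate, 1 point per library, with all UMIs in blue, thinned to 2000 UMIs in orange and black lines for means; the Npy gate falls from 8.493% to 1.659% and the Gad gate from 2.749% to 0.9253%.

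Soluble guanylate cyclase gave the most UMIs of the members, and its subunits differed in their calls. In the Slc6a9 gate the alpha subunit Gucy1a3 was 147.4, 199.1 and 221.6 CPM against 566.1, 601.9 and 713.7 in the Gad gate, without overlap. The difference was -1.74 ± 0.04 (edgeR adjusted p = 6.58e-19). The beta subunit Gucy1b3 was 141.1, 182 and 220.2 CPM against 131.5, 189.6 and 216, with overlap and no call (-0.01 ± 0.04, adjusted p = 0.918). Their ratio (Gucy1a3 over Gucy1b3 CPM within a library) was 3.361 ± 0.539 in the Gad gate and 1.017 ± 0.171 in the Slc6a9 gate (SD, 10 libraries). The Npy gate had the highest ratio of the gates, 4.985 ± 0.606: Gucy1a3 was higher there (643.7, 769 and 877.7 CPM against 438.8, 506.8 and 619.9 in other cells; 0.61 ± 0.04, adjusted p = 3.93e-13, no overlap) and Gucy1b3 lower (-0.24 ± 0.04, 0.00012), although among cells of over 8000 UMIs Gucy1b3 was at 0.09 (0.271). Gucy1a3 and Gucy1b3 are neighbours on the minus strand of chromosome 3 (chr3:82092427-82145789 and chr3:82032006-82074689, GRCm38), 17737 bases apart. In the cholinergic gate neither was called (Gucy1a3 -0.11, adjusted p = 0.12; Gucy1b3 -0.02, 0.984). Both were lower in the Gjd2 gate, Gucy1a3 by -0.63 and Gucy1b3 by -0.41. Over 8000 UMIs the Gucy1b3 value in the Gjd2 gate was -0.08 (0.276). Gucy1b3 was also lower in the Vip gate by -0.20, a call lost without the block (0.161) and in batch 3 (0.494), and Gucy1a3 was lower in the Slc17a8 gate by -0.57. The Gjd2 and Slc17a8 values for Gucy1a3 differed between batches, being -0.36 and -1.05 for Gjd2 and -0.33 and -1.05 for Slc17a8 in batches 2 and 3.

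Among the other guanylate cyclases, Gucy1a2, the other alpha subunit, was lower in the Slc6a9 than the Gad gate by -0.54, a call lost in batch 2 (0.218). Gucy2e, a photoreceptor-type membrane cyclase, was higher in the Gjd2 gate by 0.64, a call lost in batch 3 (0.337). Gucy2g, a membrane cyclase, did not pass the low-count filter: it stood at 3.301 ± 0.4133 CPM in the Gad gate and 0.06895 CPM (1 UMI in all) in the Slc6a9 gate, and an edgeR fit without that filter gave an adjusted p of 3.52e-12. Rod and cone marker sums were between 43.95 and 125.3 CPM across the gates, and their part in the Gucy2e value was not tested.

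The cGMP-dependent kinases, the main protein targets of cGMP, were low overall and split by gate. Prkg1 was 30.87, 49.12 and 72.9 CPM in the Slc17a8 gate against 11.13, 15.89 and 20.01 in other cells, higher by 1.70 ± 0.14 (edgeR adjusted p = 9.45e-12), without overlap. It was lower in the cholinergic gate (-1.04 ± 0.24, adjusted p = 0.00111), the Gjd2 gate (-0.47), the Npy gate (-0.33) and the Nos1 gate, and did not pass the test between the Slc6a9 and Gad gates (0.02, adjusted p = 0.894). The cholinergic Prkg1 call was lost with Npy-gated cells left out (-0.76, 0.0863), in batch 3 (-0.90, 0.36) and with other cell classes left out (-0.54, 0.588). The Gjd2 call was lost over 8000 UMIs (0.13) and the Npy call without the block (0.181) and without cholinergic-gated cells (0.35). Prkg2 did not pass the low-count filter in 6 of the comparisons. It stood at 17.65 ± 10.57 CPM in the cholinergic gate (0, 16.09 and 41.15) against 1.245 ± 0.3085 in other cells, and the next gate was Npy at 3.05 ± 2.322. An edgeR fit without the filter gave 3.77 ± 0.25 (adjusted p = 4.62e-16) for the cholinergic gate, where 9 of 10 libraries were above all libraries of other cells and 1 was at 0.

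**Figure D3:**
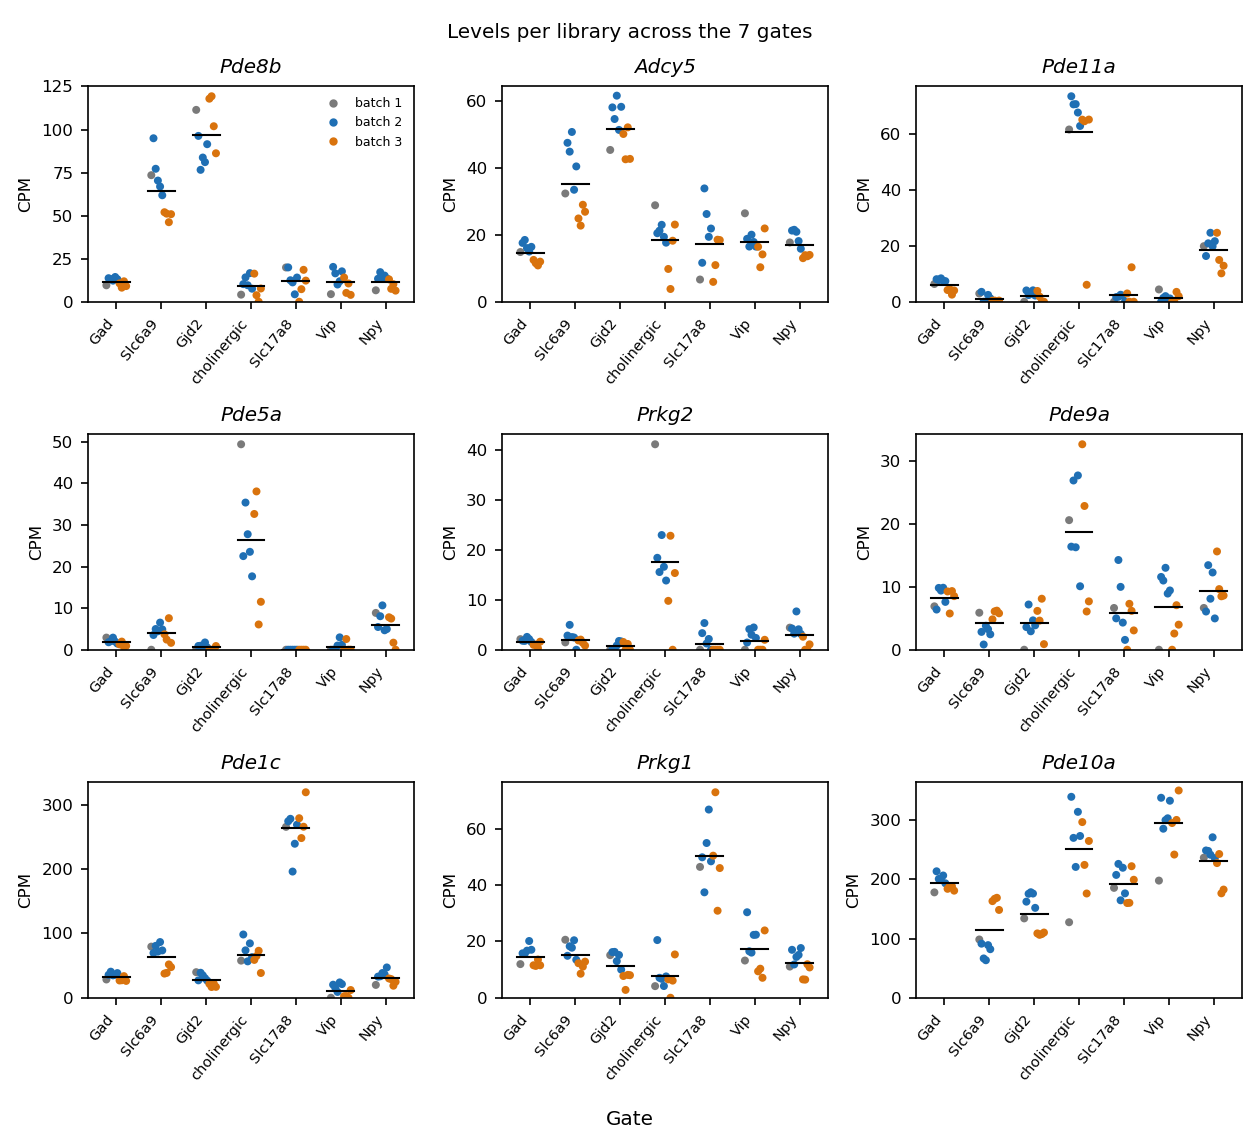
CPM of 9 members (panels) in 7 gates, 1 point per library coloured by batch, with black lines for means. Pde8b and Adcy5 are highest in the Gjd2 gate, Pde11a, Pde5a, Prkg2 and Pde9a in the cholinergic gate, Pde1c and Prkg1 in the Slc17a8 gate and Pde10a in the Vip gate.

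The plot of 9 members across gates shows which gate carried each. Adcy5, a calcium-inhibited adenylyl cyclase (chr16:35154877-35305738), was 42.54, 51.7 and 61.54 CPM in the Gjd2 gate against 11.96, 15.73 and 18.75 in other cells, higher by 1.79 ± 0.07 (edgeR adjusted p = 1.09e-14) without overlap. It was also higher in the Slc6a9 than in the Gad gate (22.73, 32.88 and 50.7 against 10.84, 14.92 and 18.45 CPM; 1.29 ± 0.08, 9.33e-12), and with the cells of the other 6 gates left out on both sides the difference was 0.55. Adcy2, which G-protein beta-gamma subunits stimulate, went the other way: 6.338, 11.22 and 18.19 CPM in the Slc6a9 gate against 47.67, 49.34 and 57.91 in the Gad gate, lower by -1.99 ± 0.12 (5.46e-12) without overlap. Adcy1, a calcium-stimulated cyclase, was higher in the cholinergic gate, 26.88, 37.25 and 55.36 CPM against 15.35, 18.91 and 24.54 (1.07 ± 0.14, 3.91e-07), without overlap, and by 0.54 in the Gjd2 gate. With other cell classes left out the cholinergic value for Adcy1 was 0.62 (0.197). Adcy8, also calcium-stimulated, was higher in the Vip gate by 0.70 and lower in the Slc17a8 gate by -1.16 ± 0.33 (0.0088). Both Adcy8 calls were lost within either batch: 0.0557 and 0.154 in batches 2 and 3 for the Slc17a8 gate, and 0.0727 and 0.114 for the Vip gate. Adcy6, like Adcy5 inhibited by calcium, was lower in the Vip gate by -1.29 ± 0.40 (0.0142, and 0.0517 with DESeq2). Adcy9 was lower in the Slc6a9 than the Gad gate by -0.84 ± 0.17 (0.000168), and Adcy3, the cyclase of olfactory cilia, was called in none of the 7 comparisons.

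**Figure D4:**
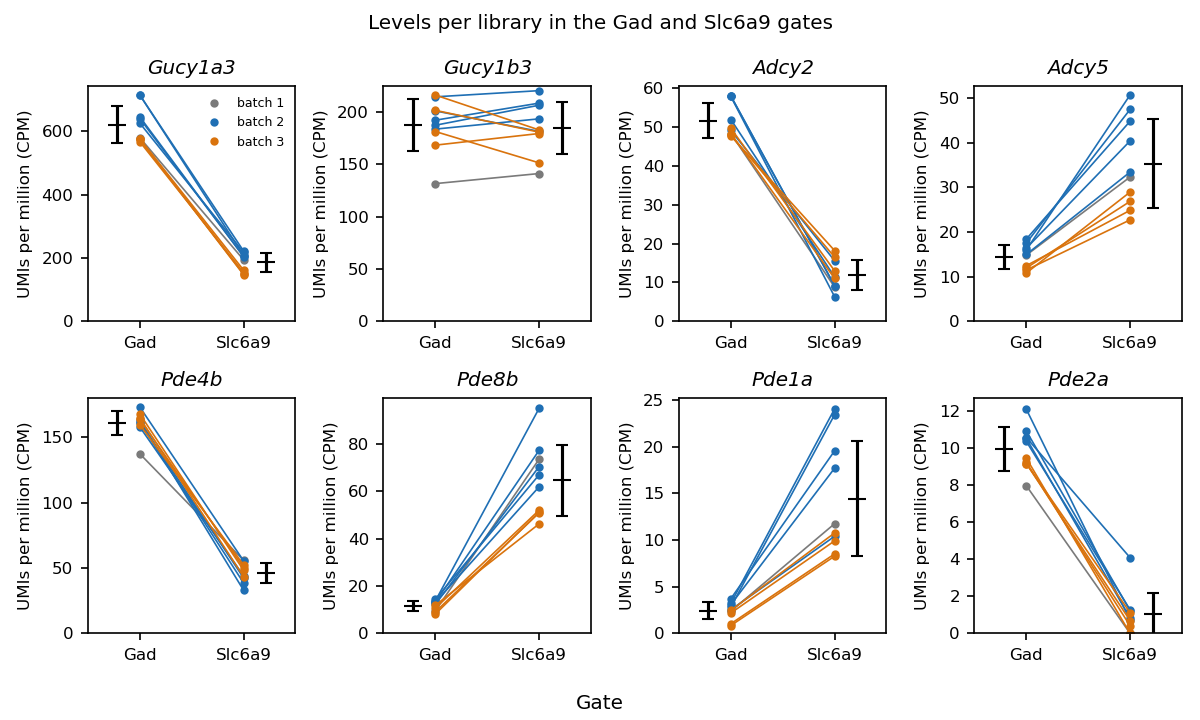
CPM of 8 members in the Gad and Slc6a9 gates, 1 line per library coloured by batch, with the mean and SD beside. Gucy1a3, Adcy2, Pde4b and Pde2a drop from Gad to Slc6a9, Adcy5, Pde8b and Pde1a climb, and Gucy1b3 stays level.

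The paired plot of Gad and Slc6a9 gates shows these changes library by library. Müller glia markers summed to 1083.5 ± 101.1 CPM in the Gad gate and 445.6 ± 54.17 in the Slc6a9 gate, and horizontal cell markers to 94.52 ± 10.62 and 392.4 ± 34.82. In the Müller list, Dkk3 (606.3 CPM in the Gad gate against 141.6) and Glul (394.1 against 143.5) followed the sum. The other Müller markers went the other way: Slc1a3 (3.449 against 80.9), Rlbp1 (5.958 against 12.53), Apoe (52.25 against 77.98) and Aqp4 (1.89 against 2.148). Of the horizontal markers, Calb1 alone stood at 90.52 and 382.7 CPM. With cells rich in bipolar or Müller marker UMIs left out, 19 of the calls in this comparison held and 1 was lost. With such cells left out by share of UMIs, 22 held. Horizontal markers were in neither filter, and otherwise the part of these markers in this comparison was not tested. Among the phosphodiesterases, 6 were higher and 6 lower in the Slc6a9 gate. Pde8b, which hydrolyses cAMP with high affinity (chr13:95024454-95250336), was 46.19, 64.36 and 94.92 CPM in the Slc6a9 gate against 8.172, 12.05 and 14.37 in the Gad gate (2.48 ± 0.08, edgeR adjusted p = 1.6e-16). The ranges were apart, and with the 6 other gates left out the difference was 1.27. Pde1a, a calcium-calmodulin phosphodiesterase, was 8.274, 11.26 and 24.07 CPM against 0.847, 2.504 and 3.725 (2.57 ± 0.15, 1.78e-12), without overlap. Pde7b, a cAMP-specific enzyme, was higher in the Slc6a9 gate by 1.11 ± 0.26 (0.00105), with overlap, but its difference was 0.20 in batch 2 (adjusted p = 0.579) and 1.95 in batch 3. Lower in the Slc6a9 gate were Pde4b, a cAMP-specific enzyme (32.96, 46.09 and 55.84 CPM against 137.3, 162.5 and 173; -1.79 ± 0.06, 3.51e-16), without overlap, and Pde2a, which cGMP stimulates (0, 0.769 and 4.078 against 7.953, 9.889 and 12.07; -3.31 ± 0.27, 7.52e-10), also without overlap. Pde11a, which hydrolyses both messengers, was lower by -2.61 ± 0.32 (5.05e-07) with overlap. Pde10a (-0.72 ± 0.13) and Pde3a (-0.79 ± 0.16) were lower too, but by -1.35 and -1.56 in batch 2 and -0.20 and -0.15 in batch 3.

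In the Gjd2 gate, Pde8b was 76.58, 93.88 and 119.3 CPM against 10.36, 13.1 and 16.6 in other cells (2.83 ± 0.11, edgeR adjusted p = 2.04e-14), with ranges apart. Pde4b was lower, 27.74, 66.63 and 87.74 CPM against 128, 144.7 and 162 (-1.09 ± 0.09, 2.54e-09), without overlap. Pde1a was 2.43 against 5.55 CPM (-1.01 ± 0.22, 0.000697), Pde1c fell by 0.68 and Pde9a, which is cGMP-specific, by 0.78. The calls for Pde1c (-0.18, 0.186) and Pde9a (-0.38, 0.267) were lost over 8000 UMIs, and that for Pde1a in batch 3 (0.052). Pde11a was lower by -1.01 ± 0.25 (0.00197), and the call was lost in batch 3 (0.328). Being lower by at least 2-fold was called for 4 of 29 members and 3.14% of all genes tested.

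The cholinergic gate had the highest mean level of Pde11a and Pde5a among the 7 gates, with the Npy gate next for both. Pde11a (chr2:75989141-76338774) was 6.074, 65.27 and 73.64 CPM against 1.774, 2.758 and 4.483 in other cells, higher by 4.44 ± 0.17 (edgeR adjusted p = 1.96e-18), without overlap. The lowest value was library 9, which held 17 cholinergic cells, and the other 9 libraries lay between 61.73 and 73.64. Pde5a, which is specific for cGMP (chr3:122728947-122859374), was 6.074, 25.64 and 49.38 CPM against 1.717, 2.021 and 3.055 (3.72 ± 0.23, 1.13e-13), without overlap. With Npy-gated cells left out on both sides the differences were 4.00 and 3.26. Pde4d, a cAMP-specific enzyme, was 30.37, 143.6 and 242.8 CPM against 43.03, 52.14 and 58.08 (1.58 ± 0.12, 2.73e-11) and Pde9a 6.074, 18.47 and 32.63 against 5.33, 7.228 and 8.081 (1.51 ± 0.21, 1.22e-06). Both overlapped, and for both the lowest value was again library 9. Pde2a was lower, 0, 0 and 4.786 CPM against 5.941, 8.621 and 10.48 (-2.14 ± 0.37, 3.53e-05), without overlap. Pde1a was lower by -1.29 ± 0.40 (0.0119), and the call was lost within batch 2, within batch 3 and with Npy-gated cells out. Smaller calls were Pde10a (0.60), Pde1b (0.70), Pde1c (0.70), Pde3a (0.42), Pde8b (-0.96), Pde4a (-0.82) and Pde4b (-0.71). A filter on other cell classes by their share of a cell's UMIs, not counting Isl1, kept 643 of the 651 gated cells and all 16 calls. It was chosen after seeing the data. A filter by bipolar and Müller marker UMIs left 247 gated cells, with 9 libraries in the fit. With cells of other classes left out in this second way, 5 of the 16 calls were left, those of Pde11a, Pde5a, Pde4d, Pde1c and Pde4b. Under that filter, which also takes out cells through Isl1, Pde9a was 0.98 (0.223), Pde2a -1.96 (0.0747), Pde10a 0.33 (0.086), Pde8b -0.71 (0.321), Pde4a -0.43 (0.183) and Pde1b -0.02 (0.989). The Pde1b call was also lost with Npy-gated cells out (0.33, 0.243), and the Pde3a call over 8000 UMIs (0.111). Bipolar markers summed to 955.9 CPM in this gate against 132.1 in all cells, of which Isl1, a gene that starburst cells also express, was 809.6. Beyond these filters, the part of bipolar markers in these values was not tested.

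In the Slc17a8 gate, Pde1c (chr6:56069804-56569103), a calcium-calmodulin phosphodiesterase, was 195.9, 267 and 319 CPM against 31.34, 39.84 and 46.37 in other cells, higher by 2.73 ± 0.08 (edgeR adjusted p = 1.13e-22), without overlap. Pde11a was lower by -1.52 ± 0.48 (0.0171), a call lost without library 4 (0.0516), without library 6 (0.06), with DESeq2 (0.0746) and without the block (0.134). Pde5a had 0 UMIs among 4320209 in this gate and was not tested. The floor of 3 counts is 0.6944 CPM against 2.881 in other cells, so Pde5a was at least 4.149-fold lower by that floor over the gate. Pde4d was lower by -0.67 with ranges apart, and Pde8b by -0.88, both calls lost over 8000 UMIs (0.176 and 0.0658). Bipolar markers summed to 251.1 CPM in this gate. With other cell classes left out by marker UMIs, 8 of the gate's calls held and 3 were lost. By share of UMIs, 11 held and 1 was lost. Beyond these filters, the part of bipolar markers in these values was not tested. Pde7a, a cAMP-specific enzyme, was higher by 0.50, as it was in the Gjd2 gate by 0.41, where the value in batch 3 was -0.01. The Slc17a8 call for Pde7a was lost in batch 3 (0.07, 0.952). Pde4dip, the scaffold protein, was called elsewhere: higher in the Slc6a9 than the Gad gate (0.54) and in the Gjd2 gate (0.48), and lower in the Nos1 gate (-0.85), a call lost among Gad-gated cells (-0.91, 0.227, 3 libraries).

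The Vip gate showed no member higher by 2-fold. Pde10a (chr17:8525372-8986648) was 198, 300.4 and 350.3 CPM against 160.2, 179.4 and 188.6 in other cells (0.78 ± 0.05, edgeR adjusted p = 1.37e-16), without overlap, and Pde4a was 108.5, 136.2 and 167.2 against 87.89, 94.22 and 103 (0.53 ± 0.06, 2.35e-09), without overlap. Pde1c was lower, 0, 10.47 and 23.79 CPM against 36.08, 47.34 and 54.82 (-1.79 ± 0.17, 3.33e-11), without overlap. Pde11a (-2.08 ± 0.45, 0.000339), Pde1a (-1.52 ± 0.40, 0.00354) and Pde2a (-1.11 ± 0.27, 0.00161) were lower with overlap, and none of these 3 was called in batch 3 alone.

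In the Npy gate, 2 members were higher by at least 2-fold, and 17.89% of the gate's cells had also passed the cholinergic gate. Pde11a was 10.18, 19.89 and 24.72 CPM against 1.337, 3.738 and 5.405 in other cells (2.39 ± 0.15, edgeR adjusted p = 9.36e-13), without overlap, and its difference was 0.73 (0.027) with cholinergic-gated cells left out on both sides and 0.68 (0.0655) with other cell classes left out. Pde5a was 0, 6.476 and 10.66 CPM (1.32 ± 0.24, 0.000115), and it was not tested once cholinergic cells were out, since too few counts were left. Pde4d was higher by 0.59, and by 0.19 without those cells. Pde8b was lower by -0.75 without overlap, and Nos1 was higher by 0.67 with the cholinergic-gated cells out.

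Cells with at least 3 Nos1 UMIs formed a gate of 137 cells, compared with other cells of the same libraries in the plot of 8 members. Of these, 82 (59.85%) passed the Gad gate, 0 the Slc6a9, cholinergic or Slc17a8 gates, 5 the Gjd2 gate, 2 the Vip gate and 11 the Npy gate, while 55 (40.15%) passed neither the Gad nor the Slc6a9 gate. The 137 cells were deep, with a median of 16451 UMIs against 4210 for all cells and 3664 for the Slc6a9 gate. How far depth shaped this split between gates was not tested. Summed ganglion-cell markers of the Nos1 gate were 876.3 ± 95.9 CPM against 491.5 in all cells, and pan-amacrine markers were 2811.8 against 4469.8. Of the 7 ganglion-cell markers, Thy1 (579.1 against 326.8), Sncg (162.9 against 38.27), Nefl (161 against 116.4) and Rbpms (5.999 against 3.147) stood higher. Lower were Pou4f1 (1.846 against 2.05), Slc17a6 (2.307 against 2.867) and Pou4f2 (0 against 0.362). The part of depth and of these markers in the values below was not tested. The 7 libraries with at least 10 such cells, 116 cells in all, entered the fit against other cells, and Nos1 itself defined the gate and was not tested.

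Higher in the Nos1 gate by at least 2-fold were 2 phosphodiesterases. Pde2a was 8.564, 38.18 and 44.51 CPM (lowest, median and highest of 7 libraries) against 7.122 to 9.792 in other cells, higher by 1.97 ± 0.27 (edgeR adjusted p = 1.16e-10). It was higher in 7 of 7 libraries, although the ranges overlapped. Among cells of over 8000 UMIs the difference was 1.74 and among Gad-gated cells 1.69 (adjusted p = 0.0107). A stricter gate of at least 5 Nos1 UMIs gave 1.25 (0.179) and batch 3 alone 1.52 (0.0554). Pde11a was 0, 15.73 and 37.66 CPM against 2.861 to 6.8 (1.89 ± 0.36, 6.37e-06), with overlap, and the call was lost with the stricter gate (0.77, 0.688) and in batch 3 (0.384).

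Lower in the Nos1 gate were both subunits of the nitric oxide receptor. Gucy1b3 was 83.2, 94.21 and 113.3 CPM against 174.6 to 217 in other cells (-0.96 ± 0.11, edgeR adjusted p = 1.71e-13), without overlap, and Gucy1a3 was 147.2, 308.3 and 481.5 against 458.6 to 643.5 (-0.86 ± 0.09, 2.74e-17), with overlap. Compared within the Gad gate (3 libraries), the differences were -1.02 and -1.78. Pde3a showed the widest gap among members with a UMI in the gate, 0, 10.27 and 56.64 CPM against 101.5 to 130.7 (-2.53 ± 0.20, 7.85e-27), without overlap, and -2.61 among cells of over 8000 UMIs. Pde1c was 4.894, 12.8 and 25.17 CPM against 35.37 to 48.25 (-1.68 ± 0.26, 1.44e-08), without overlap. Among Gad-gated cells, with 3 libraries in the fit, the Pde1c difference was -1.41 and the call was lost (0.0523). Prkg1 was lower by -1.27 ± 0.40 (0.0101), a call lost without library 10 (0.0633) and with DESeq2 (0.0571). Pde1a was lower by -2.25 ± 0.83 (0.0331), a call lost when any 1 of libraries 2, 4, 5, 6, 7 and 8 was left out and with DESeq2 (0.102), and among Gad-gated cells the difference was 0.49. Pde5a had 0 UMIs in all 7 libraries against 2.65 ± 0.475 CPM in other cells. The 3-count floor over the gate's 1725411 UMIs makes it at least 1.548-fold lower, and its call (0.0248) was lost without library 4 (0.06) or library 5 (0.0526). The members' median of -0.30 does not change with Pde5a at that bound. After thinning to 2000 UMIs, Pde3a was detected in 1.46% of the 137 gated cells against 15.13% of other cells, and Gucy1a3 in 40.15% against 54.08%. Outside the gene lists, the 3 leading genes of the gate were Tac2, a tachykinin precursor (3415 against 135 CPM, 4.55 ± 0.09), Adra1b, an adrenergic receptor (267 against 10.5, 4.56 ± 0.15) and Mustn1 (81.6 against 2.72, 4.76 ± 0.25).

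**Figure D5:**
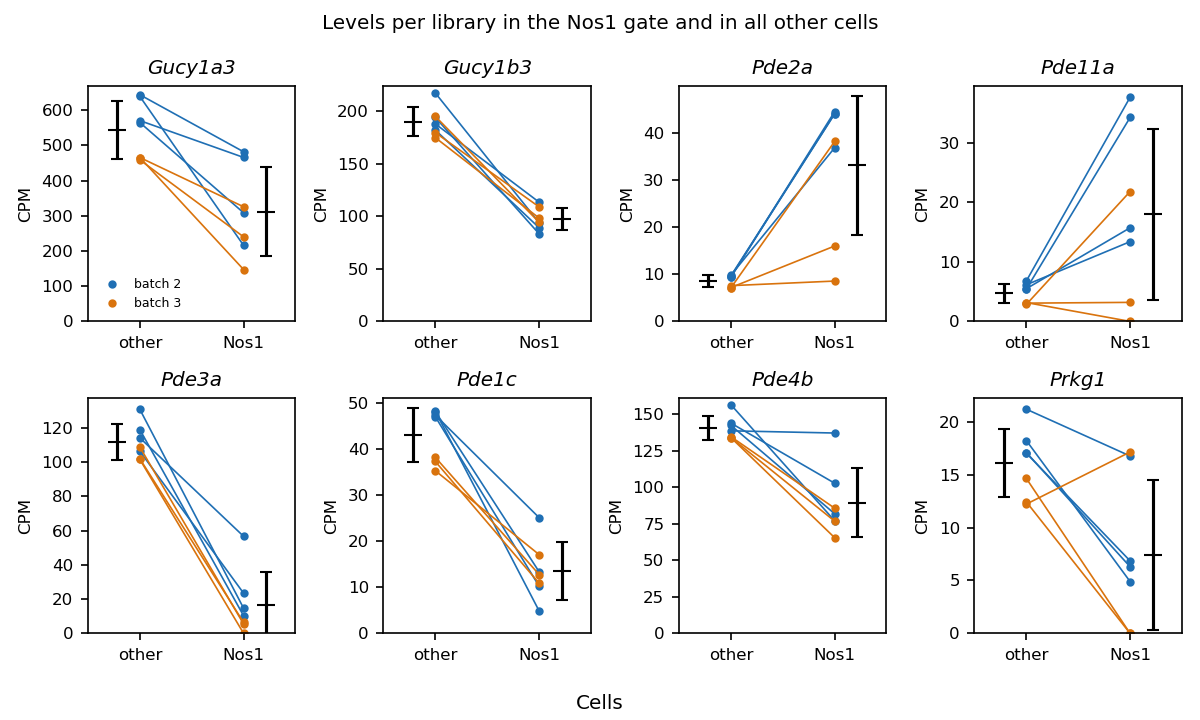
CPM of 8 members in the Nos1 gate and in other cells of the same 7 libraries, 1 line per library, with the mean and SD beside. Pde3a, Pde1c and Gucy1b3 are lower in the Nos1 gate in each library, and Pde2a is higher in 7 of 7.

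Other genes of the pathway, a list of 83 of which 82 were in the table, were read against the same all-gene shares. Between the Slc6a9 and Gad gates 44 of 61 tested were called (72.13%; 16 higher, 28 lower), against 61.2% of all genes. The called numbered 36 of 62 in the Gjd2 gate (58.06% against 48.4%), 33 of 62 in the cholinergic gate (53.23% against 34.7%), 25 of 61 in the Slc17a8 gate (40.98% against 25.1%), 31 of 62 in the Vip gate (50% against 25.6%), 34 of 62 in the Npy gate (54.84% against 28.7%) and 25 of 65 in the Nos1 gate (38.46% against 24.5%). Ppp1r17, a substrate of cGMP-dependent kinase, was 240 CPM in the Slc6a9 gate against 11.8 in the Gad gate (4.29 ± 0.10), while Arpp21, a cAMP-regulated phosphoprotein, was 0.802 against 14.9 (-4.28 ± 0.24). In the cholinergic gate, Rapgef3, the cAMP-activated exchange factor Epac1, was 20.5 CPM against 0.673 (4.85 ± 0.28) and Pkib, an inhibitor of protein kinase A, 213 against 12.1 (4.17 ± 0.11). Ass1, which recycles citrulline into the substrate of nitric oxide synthase, was 161 against 36.1 CPM there (2.33), and Npr3, the natriuretic clearance receptor, 27.5 against 4.71 (2.56). Cngb3, a subunit of cyclic nucleotide-gated channels, was higher in the Vip gate (175 against 22.8 CPM, 2.94 ± 0.08), the Npy gate (116 against 20.9, 2.41 ± 0.10) and the Nos1 gate (128 against 26.3, 2.24 ± 0.15), and lower in the Slc6a9 gate (3.63 against 34.3, -3.12). Slc7a1, a transporter of arginine, was 20.97 against 4.72 CPM in the Nos1 gate (2.12 ± 0.34), and Qdpr, which regenerates the synthase's cofactor tetrahydrobiopterin, was 98.1 against 237 (-1.18 ± 0.12). Gch1, which makes that cofactor, was not called in the Nos1 gate (-0.04, edgeR adjusted p = 0.977) but was higher in the Vip gate (15.8 against 2.45 CPM, 2.52 ± 0.23) and the Npy gate (12.3 against 2.20, 2.17 ± 0.28). All named calls in this paragraph had an edgeR adjusted p under 0.05.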

How the data were processed

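Single-cell 3′ RNA counts were measured in 10 libraries of sorted retinal cells. Per the submitters' processing notes, the authors used Cell Ranger 2.1.0 and the mm10 build, and the deposited table holds whole-number UMI counts per gene and cell, not normalized. The sources used here give neither the gene annotation nor the filters on cells or doublets, and no doublet caller was run. The cell with fewest genes had 601, and 7109 genes had no count. Each cell was assigned to its library by the library name in its column.

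Counts were summed per library and gate, in libraries with at least 10 gated cells, and tested with edgeR 4.0.16 (R 4.3.3): TMM scaling, filterByExpr, a quasi-likelihood fit with the library as a block and Benjamini-Hochberg adjustment over all genes tested. The same libraries stood on both sides of each comparison, so the block pairs sums from the same library. Standard errors are the log2 difference divided by the square root of F. The test was checked on simulated counts that carried 2-fold changes. Only genes above a minimum mean count were changed, and spread beyond counting error was set to the same value for every gene. Recovery for members with few counts was therefore not measured. It recovered 98.99% of them between the Slc6a9 and Gad gates, 98.47% for Gjd2, 98.48% for Npy and 90.36% for Vip. Recovery was 85.26% for cholinergic, 80.81% for Slc17a8 and 54% for Nos1, with 7 to 14 false calls per comparison. Call counts and uncalled members therefore do not compare evenly between gates. Nos1 detection was compared with an exact sign-flip permutation test over libraries after thinning to 2000 UMIs, a single random draw per cell. Alternatives were DESeq2 1.42.0 and its size factors, no low-count filter, no block, each batch alone, stricter gates, depth bands, other cell classes left out, and each library left out. Precision is set by depth: the cholinergic gate had 17 to 129 cells per library and the Nos1 gate 5 to 24.

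A member is described with its values where it was called with a log2 difference of at least 1 in any comparison or had the most UMIs of its family. Of the other pathway genes, at most 6 per comparison were named, by size of log2 among those called, and the 3 leading genes of the Nos1 gate needed 50 CPM. Gch1 in the Nos1 gate was named after its values were seen. Members and lists were chosen with earlier results of these data known. Positions are from GENCODE M21 and promoters from RefSeq, both GRCm38.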

Additional observations from a re-analysis of the deposited data

Results flagged for a closer look

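The difference between gates itself differed between batch 3 (4 libraries) and batch 2 (5 libraries) for 19 of 221 interaction terms tested over the members (edgeR, adjusted p under 0.05 over all genes). Between the Slc6a9 and Gad gates, 8 of 31 members differed, against 8.19% of all genes. The batch 3 minus batch 2 log2 values were 1.74 for Pde7b (0.20 in batch 2 and 1.95 in batch 3), 1.40 for Pde3a (-1.56 and -0.15), 1.15 for Pde10a (-1.35 and -0.20), 0.73 for Adcy2 (-2.41 and -1.67), 0.68 for Pde4d (0.30 and 0.99), -0.45 for Pde1c (1.06 and 0.62), -0.28 for Gucy1a3 (-1.64 and -1.91) and -0.21 for Gucy1b3 (0.07 and -0.13). The Slc6a9 gate took about 8.128 to 11.34% of cells in batch 2 and 21.16 to 23.17% in batch 3, and the part of this in the differences was not tested.

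In the Gjd2 gate 7 of 31 members differed (all genes 8.07%): Adcy8 by -1.42 (-0.06 and -1.48), Adcy2 by -0.89 (-0.25 and -1.14), Pde4b by -0.79 (-0.85 and -1.64), Pde8b by 0.79 (2.53 and 3.31), Gucy1a3 by -0.69 (-0.36 and -1.05), Pde10a by -0.58 (-0.11 and -0.70) and Gucy1b3 by -0.28 (-0.29 and -0.57). The cholinergic gate had 1 of 32 (all genes 1%), Pde4d by -0.83 (1.73 and 0.88). The Slc17a8 gate had 2 of 31 (1.44%), Gucy1a3 by -0.72 (-0.33 and -1.05) and Pde1c by 0.55 (2.53 and 3.08). The Npy gate had 1 of 33 (2.08%), Gucy1a3 by 0.24 (0.53 and 0.76). The Vip gate had 0 of 31 (0.962%) and the Nos1 gate 0 of 32 (0.369%).

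Of 52 groups of library values, 8 held a library far from the others by Dixon's criterion, which chance meets in about 1 of 20 groups. Nos1 in library 1 was 25.39 CPM in all cells and 30.48 CPM in the Gad gate; this was the only library of batch 1, so the batch and the library cannot be told apart. Library 9 had the lowest Pde11a of the cholinergic gate, 6.074 CPM, and the highest of the Slc17a8 gate, 12.35 CPM. Library 5 had the highest Pde2a of the Slc6a9 gate, 4.078 CPM, and the highest Nos1 of the Vip gate, 19.33 CPM. In the Nos1 gate, library 6 had Pde3a at 56.64 CPM and library 10 had Pde1a at 6.399 CPM.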

How the results depend on the processing

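With 1 library left out at a time, the number of members called ranged from 20 to 24 (Slc6a9 against Gad), 20 to 23 (Gjd2), 16 to 18 (cholinergic), 9 to 13 (Slc17a8), 14 to 16 (Vip), 11 to 15 (Npy) and 10 to 13 (Nos1), and the thinned Nos1 difference between 0.6265 and 0.8118 points. Of 1100 such values, 1057 kept their direction and call, 43 lost the call and 0 reversed; of 1238 under other alternatives, 1061 kept both, 170 lost the call and 7 reversed. The library block was the pairing of the main analysis; with no replicate block the members called were 21, 21, 17, 10, 13, 11 and 13 in the same order, and with DESeq2 22, 22, 16, 10, 13, 14 and 10. The count moved by over 1.5 times among cells of over 8000 UMIs (Gjd2 11, Slc17a8 3, Vip 7, Npy 9, Nos1 8), of 3000 to 8000 UMIs (Npy 8), in batch 3 alone (cholinergic 10, Vip 9, Npy 8, Nos1 5), with the stricter Nos1 gate (6), with Gad-gated cells on both sides of the Nos1 gate (6) and, for the cholinergic gate, with cells of other classes left out by UMIs (5). That filter took 6147 cells (18.9%). One by share of UMIs, chosen after seeing the data, took 552 (1.697%) and kept all 16 cholinergic calls. The Nos1 difference was 0.888 points in batch 2 and 0.308 in batch 3. The reversed values were Pde7a in the Gjd2 gate in batch 3 (-0.01), Pde1b in the cholinergic gate under the class filter (-0.02), Pde4b in the Slc17a8 gate over 8000 UMIs (0.04), Gucy1b3, Nos1 and Pde2a in the Npy gate over 8000 UMIs (0.09, -0.35 and -0.01) and Pde1a in the Nos1 gate among Gad-gated cells (0.49). Fewer cells and libraries enter these fits; otherwise the cause was not tested. All genes called moved too: Gjd2 from 5633 to 2875 (over 8000 UMIs); cholinergic from 3966 to 1408 (batch 3), 930 (class filter), 2583 (over 8000) and 1718 (Npy-gated cells out); Slc17a8 from 2880 to 945 (over 8000); Vip from 2928 to 1806 (batch 3) and 958 (over 8000); Npy from 3341 to 2109 (no block), 1979 (batch 3), 2013 (3000 to 8000) and 1727 (over 8000); Nos1 from 3057 to 1810 (batch 2), 1683 (batch 3), 1176 (stricter gate), 1802 (over 8000) and 1143 (Gad-gated). Not run were the Slc6a9 against Gad comparison over 8000 UMIs (2 libraries with enough cells) and the Nos1 gate at 3000 to 8000 UMIs (0 libraries). The depth bands over 8000 UMIs, the share-based class filter and the left-out gates were chosen after seeing the data.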
